A study of Mus musculus with 12 samples.

Results

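Microglia, the resident macrophages of the central nervous system, were not the cells the sort was made for. The largest axis of variation between these libraries nonetheless separated those with high microglial transcripts from those with low. Neutrophil, astrocyte and fibroblast transcripts also lay near the ends of this axis. The cells were sorted by eGFP from the spinal cord of adult male Aldh1l1-EGFP mice on a Swiss Webster background, in which the promoter of Aldh1l1, a folate enzyme of astrocytes, drives eGFP. The segment taken was thoracic cord centered on the lesion, and polyA RNA was sequenced in 12 libraries of 5 groups. The 3 libraries without injury (NI), 3 taken 1 week and 2 taken 2 weeks after lateral hemisection (HS), and 1 taken 1 week and 3 taken 2 weeks after full transection (FT) all carried the same transgene and no other allele. The study used more animals than libraries, so a library can pool animals. FT 1 week had no replicate among these libraries and HS 2 weeks had 2 libraries, both fewer than the methods of the study describe.

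The microglia-rich side comprised 5 of the 12 libraries, namely replicate 2 and replicate 3 of NI, replicate 3 of HS 1 week, replicate 1 of HS 2 weeks and the single library of FT 1 week. The microglia-poor side comprised the other 7, namely NI replicate 1, HS 1 week replicates 1 and 2, HS 2 weeks replicate 2 and the 3 FT 2 weeks libraries. These sides were chosen by the microglial transcript levels of these same libraries, so a difference between them is given below as a description, with no test. Each of NI, HS 1 week and HS 2 weeks held libraries of both sides. FT did not, since its 1 week library was rich and its 2 weeks libraries were poor, and side, time and library cannot be told apart there.

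Values are the normalized counts the authors deposited, which are gene counts divided by 1 factor per library. A gene was counted as higher in the rich side when its lowest rich library lay above its highest poor library and the side medians of log2(value + 1) differed by at least 1, and as lower in the reverse case. Rich libraries held 8270643 to 15562378 reads (median 13254939) and poor libraries 8818561 to 14030640 (median 12686867). The number of genes with a read was 16284 to 16385 and 16339 to 16383, so depth overlapped between the sides. In bulk RNA, fewer cells of a type and less RNA per cell cannot be told apart.

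Microglia enter the brain and cord from the yolk sac and are kept alive by Csf1r, the receptor for the cytokines Csf1 and Il34. They sense neurons through Cx3cr1, the fractalkine receptor, and nucleotides through P2ry12, and their identity is set by transcription factors that include the ETS factor PU.1 and Irf8. After cord injury they lose part of their resting profile, and monocytes, neutrophils and other blood cells enter the lesion.

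For 5 genes the 250 bases before a RefSeq transcription start (GRCm38.p6) are shown, since promoters of the higher genes were searched for the DNA word that PU.1 binds. Cx3cr1 and P2ry12 are shown as markers of the split, and Ctsc (a lysosomal protease), C1qc (a complement C1q chain) and Tlr1 (a receptor for bacterial lipoproteins) as the higher genes of the lists with the highest level whose window holds that word, GAGGAAGT. Capitals mark GAGGAAGT or its core GGAAGT on either strand. The windows are chr9:120068297-120068546 (minus strand), chr3:59262986-59263235 (minus), chr7:88277835-88278084 (plus), chr4:136892915-136893164 (minus) and chr5:64933559-64933808 (minus), in the same order.
Cx3cr1: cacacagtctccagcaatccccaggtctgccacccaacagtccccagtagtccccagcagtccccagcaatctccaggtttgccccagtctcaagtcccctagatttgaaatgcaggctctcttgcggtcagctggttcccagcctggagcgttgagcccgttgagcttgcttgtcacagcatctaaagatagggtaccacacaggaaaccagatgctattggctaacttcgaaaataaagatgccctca
P2ry12: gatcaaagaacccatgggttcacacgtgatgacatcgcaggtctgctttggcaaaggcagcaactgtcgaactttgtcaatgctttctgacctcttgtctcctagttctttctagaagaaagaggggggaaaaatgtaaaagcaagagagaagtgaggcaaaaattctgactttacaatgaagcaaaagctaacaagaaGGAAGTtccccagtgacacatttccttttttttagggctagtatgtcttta
Ctsc: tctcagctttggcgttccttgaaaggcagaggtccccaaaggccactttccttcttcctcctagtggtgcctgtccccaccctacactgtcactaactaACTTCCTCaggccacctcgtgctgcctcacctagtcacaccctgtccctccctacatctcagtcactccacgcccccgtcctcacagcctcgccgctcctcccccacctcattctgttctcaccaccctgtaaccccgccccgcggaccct
C1qc: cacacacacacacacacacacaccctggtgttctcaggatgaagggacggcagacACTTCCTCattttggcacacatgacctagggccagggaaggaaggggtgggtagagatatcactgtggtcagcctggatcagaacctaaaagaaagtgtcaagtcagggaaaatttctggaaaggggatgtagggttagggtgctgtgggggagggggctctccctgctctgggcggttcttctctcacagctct
Tlr1: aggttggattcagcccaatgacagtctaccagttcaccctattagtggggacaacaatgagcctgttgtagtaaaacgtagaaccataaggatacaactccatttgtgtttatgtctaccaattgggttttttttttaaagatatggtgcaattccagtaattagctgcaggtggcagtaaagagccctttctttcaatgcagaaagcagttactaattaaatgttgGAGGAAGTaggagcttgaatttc
GAGGAAGT, searched on both strands, was present in the windows of 43 of 496 higher genes with a RefSeq sequence (8.67%), 1 of 83 lower genes (1.2%) and 344 of all 11960 genes with one (2.88%). Its core GGAAGT, which every GAGGAAGT contains, was present in 175 of the 496 (35.3%), 14 of the 83 (16.9%) and 3042 of the 11960 (25.4%). In Cx3cr1 no match was found in this window, and the window of the marker Aif1, not shown, also held neither word. In P2ry12 the core lay 51 to 46 bases before the start. Tlr1 has another start, whose window (chr5:64932700-64932949) held neither word. In the Tlr1 window shown the longer word lay 23 to 16 bases before the start, against 151 to 144 in Ctsc and 195 to 188 in C1qc, both on the opposite strand. These matches are letters only, and whether a factor binds them was not tested.

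Over all genes, 666 of 16388 (4.06%) were higher and 125 (0.763%) were lower in the rich side. Differences were at least 4-fold for 217 and 34 of them, and at least 8-fold for 11 and 10. The median difference of all genes was 0.01 on the log2 scale. The count of lower genes rested on a few libraries, and was 439 without NI replicate 2 and 212 without HS 1 week replicate 2. It was 78 after rescaling to the same total.

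The 15 genes with the largest difference among the higher ones included Selplg, Ccr6, Slc2a5, Tmem119, Il10ra, Fgd2, Hmha1, Lyn, P2ry6, Pld4, P2ry13 and Csf1r. These are largely surface receptors and signaling proteins of microglia and other leukocytes. Selplg, the ligand of selectins, was at 220.6 and 273.4 in the rich NI libraries, 248.5 in HS 1 week replicate 3, 166.4 in HS 2 weeks replicate 1 and 74.14 in FT 1 week, against 8.74 to 29.82 in the poor libraries, a difference of 3.85 (log2). Ccr6, a chemokine receptor, ranged from 20.01 to 92.63 in the rich side and from 3.74 to 11.4 in the poor side.

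The chosen markers did not all divide the libraries. Csf1r was at 833 to 2326 in the rich side and 91.7 to 427.7 in the poor side, with no overlap and a difference of 2.94. Cx3cr1 was at 490.2 to 1128 and 33.63 to 230.7 (difference 2.81). P2ry12 was at 189.1 in the FT 1 week library and 193.8 in HS 1 week replicate 1, so the sides overlapped at this pair, and the other rich libraries were at 459 to 819.4. Aif1, which encodes the calcium-binding protein Iba1, was at 88.79 in NI replicate 2 and 94.88 in FT 2 weeks replicate 3, and its highest value was 466.7 in FT 1 week. The FT 1 week library thus had the lowest P2ry12 and the highest Aif1 of the rich side.

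The summed level of 12 microglia genes placed HS 1 week replicate 1, at 2153, as the highest poor library and FT 1 week, at 4182, as the lowest rich library. The other poor libraries were at 703.9 to 1393 and the other rich ones at 4565 to 8861. Of the 12 genes, 8 were higher with a list median difference of 2.75, beside 0.01 over all genes. The 12 include the markers Cx3cr1, P2ry12 and Csf1r, and the sides were chosen by such transcripts, so this difference follows in part from the choice. Tmem119, a microglial membrane protein, was at 97.24 to 310.2 against 12.89 to 38.43. Slc2a5, a fructose transporter, was at 53.45 to 170.2 against 6.85 to 25.22. Sall1, a zinc finger factor of microglia, did not overlap, but its values of 123.1 to 154 and 69.31 to 117.7 were less than 2-fold apart. Olfml3 and Fcrls overlapped, with 221.1 to 455.6 against 85.71 to 378.1 and 15.26 to 96.63 against 2.78 to 46.55.

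**Figure D1:**
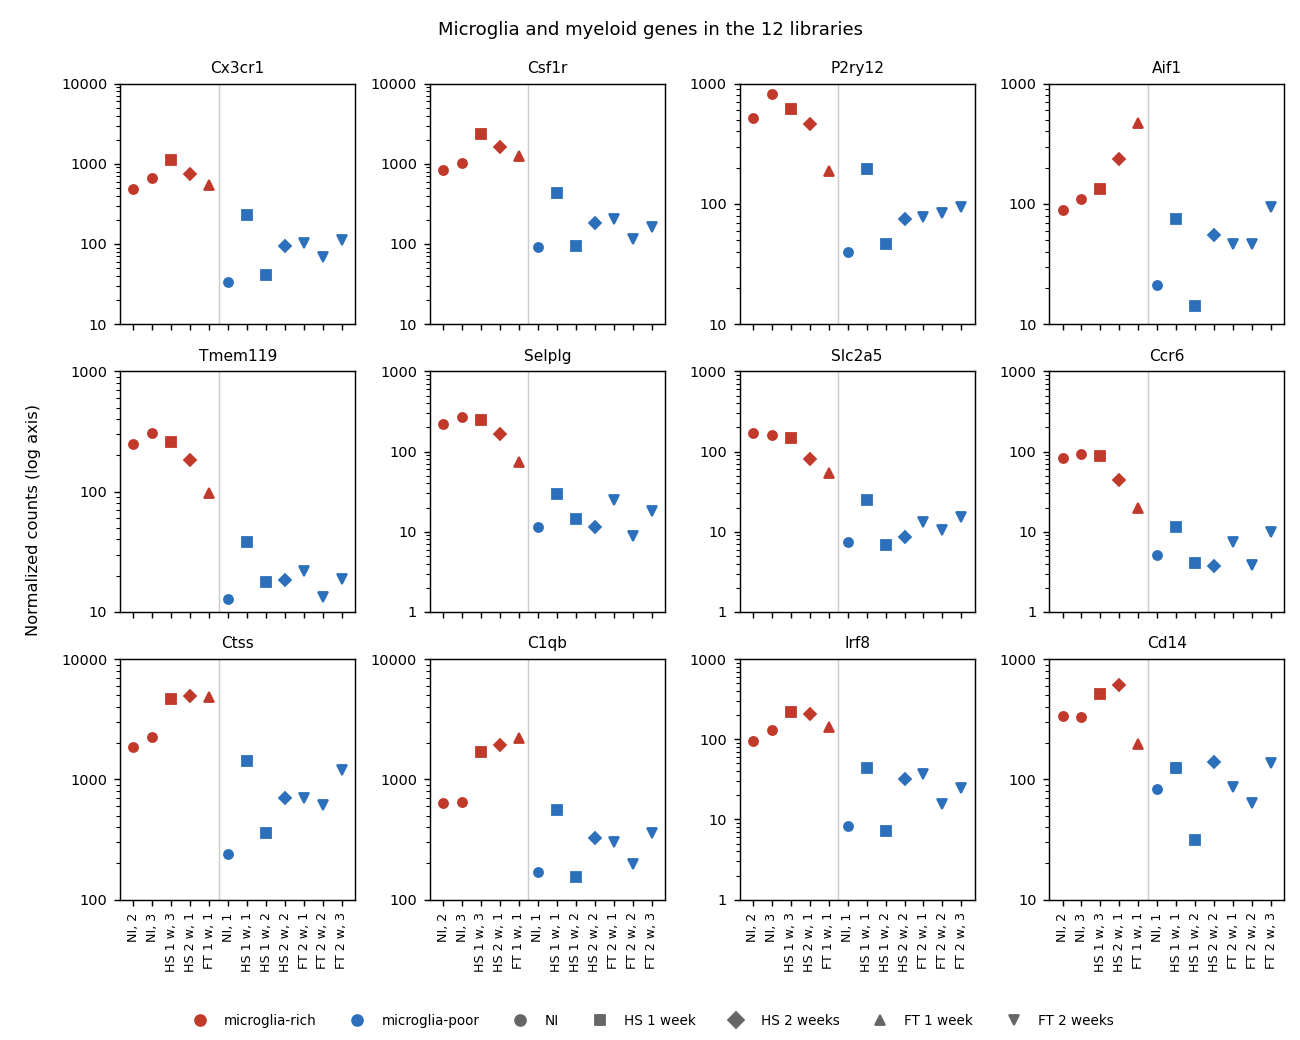
Normalized counts of 12 microglia and myeloid genes (y axes, log scale) in the 12 libraries (x axes), with 1 point per library, colored by side and shaped by group. Csf1r and Cx3cr1 do not overlap between the sides, whereas P2ry12 and Aif1 overlap at 1 pair of libraries each, and HS 1 week replicate 1 is the highest poor library for Csf1r, at 427.7.

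Transcription factors of microglia followed the same division. Of 9 measured, 8 were higher, with a list median difference of 1.90. The gene of PU.1 stood in the table under its older symbol Sfpi1, outside the 9, and was also among the higher genes, at 2.88 to 6.62 against 0.35 to 1.56 (difference 1.37). Irf8, an interferon regulatory factor needed by microglia, was at 96.39 to 219.9 against 7.2 to 44.25. Irf5 was at 46.87 to 109.9 against 4.68 to 21.09, and Mef2c was at 107.1 to 203.6 against 18.13 to 65.22. Runx1, Cebpa, Batf3 and Ikzf1 were also higher, with differences of 1.35 to 2.69.

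Receptors that keep microglia alive or at rest were higher for 6 of 8 members, with a median difference of 1.95. Of these 8, 3 were also in the microglia list and 2 in the list shared by myeloid cells, so the count is not separate from theirs. Trem2, a lipid receptor of microglia, was at 248.9 to 806.7 against 26.87 to 199.1. Tgfbr1, a receptor chain for the cytokine Tgfb1, was at 140.3 to 377.2 against 21.61 to 81.1. Tyrobp, the signaling adaptor of Trem2, overlapped between NI replicate 2 (213.9) and FT 2 weeks replicate 3 (316.3). Cd200r1 passed narrowly, with 6 in NI replicate 2 and 5.94 in HS 1 week replicate 1.

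The ligands of these receptors did not share that pattern. Of 7 measured, none was higher and Il34 was lower, at 1.96 to 5.36 in the rich side and 5.94 to 23.3 in the poor side. Csf1, the other ligand of Csf1r, overlapped with 57.45 to 241.8 against 90.29 to 176. Cd47, a signal that restrains phagocytes, was at 84.42 to 118.5 against 60.59 to 101.9. In the brain Il34 is made mainly by neurons.

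Genes shared by microglia and other myeloid cells were higher for 13 of 17, with a median difference of 2.37. Ctss, a lysosomal protease, was at 1868 and 2232 in the rich NI libraries and at 4691 to 4982 in HS 1 week replicate 3, HS 2 weeks replicate 1 and FT 1 week, against 237.5 to 1419 in the poor side. C1qb, a complement chain, was at 638.8 and 644 in the rich NI libraries and at 1701 to 2199 in the 3 rich injured libraries, against 153.4 to 552.3. The 4 members that were not counted, Aif1, Mpeg1, Tyrobp and Cd68, all overlapped through NI replicate 2, without which all 17 were higher. Fc and pattern recognition receptors were higher for 10 of 14. Cd14, the coreceptor for bacterial lipopolysaccharide, was at 195.7 to 604.7 against 31.4 to 138.6.

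Perivascular macrophage genes did not divide the libraries, whereas the summed level of monocyte genes did. Of 10 perivascular macrophage genes, 1 was higher (Stab1, a scavenger receptor, at 47.46 in NI replicate 1 and 47.5 in NI replicate 3), and the summed level was 106.7 to 242.9 against 16.66 to 241.7. Mrc1, the mannose receptor, was at 5.81 to 35.58 in the rich side and 2.08 to 49.66 in the poor side. Monocyte genes were higher for 3 of 9 (Cd14, Ccr2 and Itgal). All 9 had a side difference above 0, with a median of 2.51. Their summed level, which includes Cd14, was 268.5 to 1010 against 46.5 to 158.6. Ccr2, the receptor that brings monocytes into tissue, was at 4.77 to 27.93 against 0.52 to 3.64.

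Granulocyte transcripts were high in some rich libraries and not in others. The summed level of 12 neutrophil genes was 6335 and 10850 in the rich NI libraries and 3231 in HS 1 week replicate 3, but 407.4 in HS 2 weeks replicate 1 and 255.7 in FT 1 week. NI replicate 1 was at 793.6 and the other poor libraries were at 134.3 to 233.3. S100a8, a calcium-binding protein of neutrophils, was at 1573, 3291 and 579 in the first 3 of these libraries, at 18.07 and 9.54 in the next pair, and at 173.4 in NI replicate 1. Mpo and Elane, granule enzymes made by neutrophil precursors in the marrow, were at 563.1 and 296.8 in NI replicate 3, against 47.46 and 7.39 in NI replicate 1. Of the 12 genes only Csf3r, the receptor for granulocyte colony stimulating factor, was higher, at 112.2 to 370.8 against 12.42 to 66.8. The list median difference was nonetheless 4.46, larger than the 2.75 of the microglia list.

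B cell genes were low throughout and highest in the same libraries. The summed level of 7 B cell genes was 47.49 and 76.58 in the rich NI libraries, 16.7 in HS 1 week replicate 3, and 3.64 to 8.82 in the other libraries. Vpreb3 and Igll1, which belong to B cell precursors, reached 12.88 and 15.19 in NI replicate 3, and Igll1 was at 0.31 or less in every poor library. Of 9 genes of T and NK cells none was higher. Their summed level was 86.87 in NI replicate 3, 46.2 in FT 1 week, 41.3 in NI replicate 2 and 32.18 in HS 1 week replicate 3, and 5.55 to 15.38 in the others, so FT 1 week stood with the high libraries here and not for neutrophil genes. Klrk1, an activating receptor of NK cells, was at 22.56 in FT 1 week and 0.35 to 1.66 in the others.

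Astrocyte transcripts were lower in 4 of the 5 rich libraries. The summed level of 20 astrocyte genes was 2576 to 4049 in NI replicate 3, HS 1 week replicate 3, HS 2 weeks replicate 1 and FT 1 week, and 8653 to 16230 in the poor side. NI replicate 2, at 9431, lay inside the range of the poor side while its microglia list stood at 4565. Only 1 of the 20 genes was therefore lower by the counting rule, and without NI replicate 2 the number was 16. That gene was Aldh1l1, whose promoter drives the eGFP used in the sort, at 10.22 to 59.43 against 72.98 to 126.7, a difference of -1.28. Reads of the eGFP transgene were not analysed here.

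Aqp4, the water channel of astrocytic endfeet, showed the same exception, with 439.5 in NI replicate 2, 17.74 to 96.56 in the other rich libraries and 306.5 to 817 in the poor side. Gja1, the gap junction protein connexin 43, was at 991.2 in NI replicate 2, 69.57 to 125.2 in the other rich libraries and 498.8 to 1148 in the poor side. Slc1a2, the glutamate transporter GLT-1, was at 609.1, 24.16 to 116 and 415.7 to 843.1 in the same order. Glul, glutamine synthetase, was the only member of the list with a median above that of the poor side, at 882.5 to 1099 against 489.5 to 924.6. Gfap, an intermediate filament, was at 33.25 and 100.2 in the rich NI libraries and 153.7 in NI replicate 1, and at 101.5 to 304.1 in the 3 rich injured libraries against 677 to 1631 in the 6 poor injured ones.

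**Figure D2:**
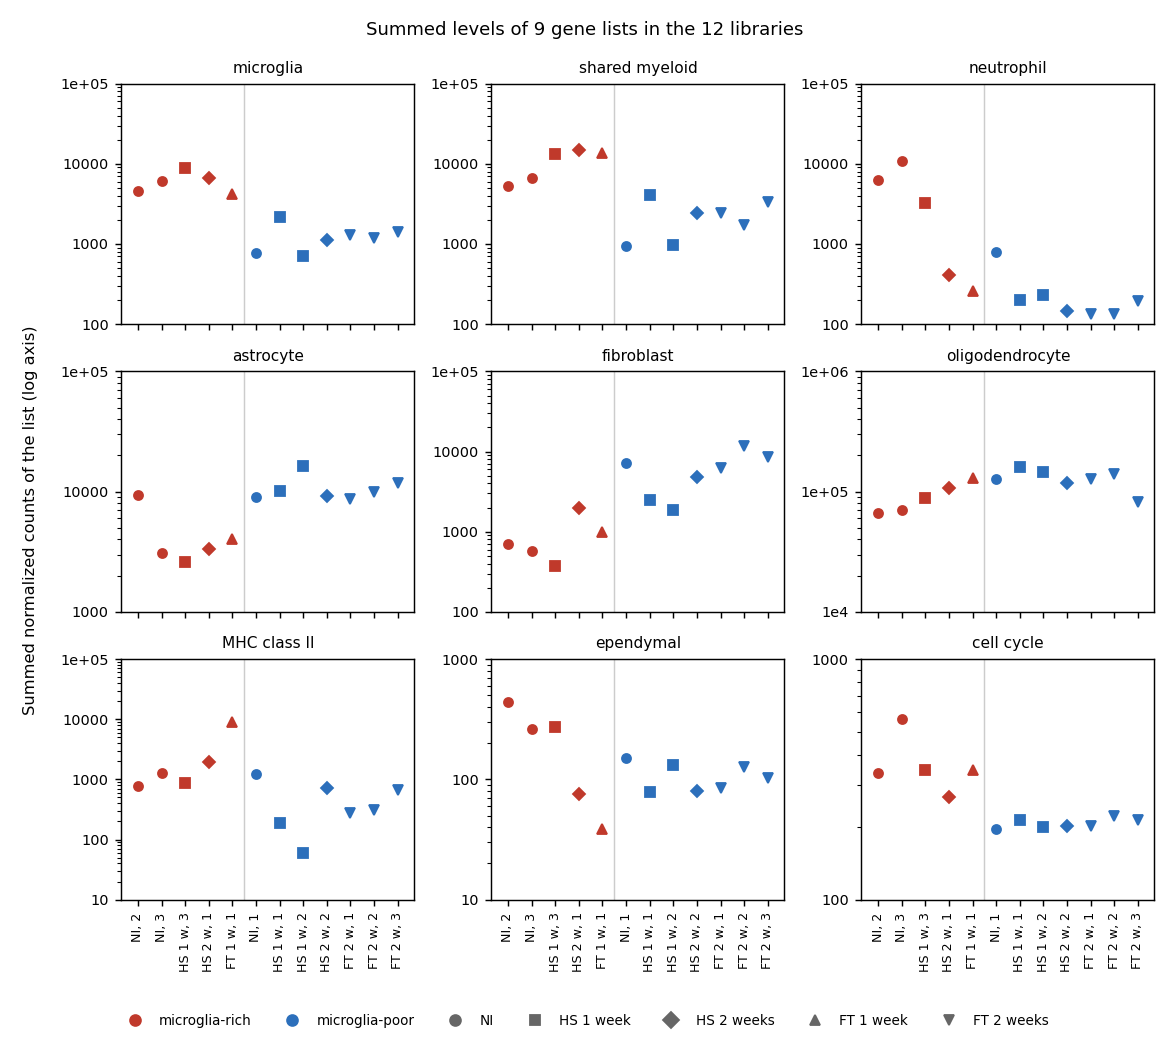
Summed normalized counts of 9 gene lists (y axes, log scale) in the 12 libraries (x axes), with 1 point per library, colored by side and shaped by group. Microglia, shared myeloid and cell cycle lists do not overlap between the sides, and the astrocyte list overlaps through NI replicate 2 alone (9431). The neutrophil list is high in both rich NI libraries (6335 and 10850) and in HS 1 week replicate 3 (3231).

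Fibroblast genes had the most members counted as lower of any list. The astrocyte list had a larger median difference, of -2.54, with only 1 member counted. Of 11 fibroblast genes, 7 were lower, with a median difference of -2.05, and the summed level was 372.8 to 1955 against 1891 to 11890. Lum, lumican of the collagen matrix, was at 49.66 and 25.05 in the rich NI libraries and 851.1 in NI replicate 1. It was at 17.37 to 172.1 in the rich injured libraries and 260.1 to 2026 in the poor injured ones, a side difference of -4.07. Dcn, which encodes the matrix proteoglycan decorin, was at 81.79 to 929.2 against 1265 to 8846 (difference -3.49). Col1a1 and Col1a2, chains of type I collagen, were also lower, whereas Col3a1 overlapped at 10.83 to 75.92 against 44.76 to 307.5.

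The other genes with the largest differences among the lower ones were Adh1, Gpc3, Islr, Cpxm1, Srpx, Slc6a13, A2m, Bmp5, Pcolce, Hpca, Col6a1, Wnt5a and Gstm2, several of them matrix or secreted proteins of connective tissue. Slc6a13, a GABA and taurine transporter of meningeal fibroblasts, was at 5.14 to 32.02 against 40.69 to 224.8. Igf1, a growth factor in the activated phagocyte list, was at 5.75 to 33.02 in the rich side and 16.57 to 177.9 in the poor side, while 13 of the 19 genes of that list had a side difference above 0. Pericyte genes had a median difference of -0.90, with 0 of 8 counted as lower and 2 without NI replicate 2. Vtn, vitronectin, was at 9.97 to 37.07 against 26.11 to 145.6.

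Myelin, neuronal and vascular transcripts overlapped between the sides. Of 16 oligodendrocyte genes none was counted, with a median difference of -0.44 and sums of 66750 to 130800 against 81470 to 158900. Cnp, a myelin enzyme, was abundant in every library, at 4366 to 7497 against 3393 to 9526, so the sorted cells labelled as astrocytes held myelin RNA on both sides. Of 13 neuronal genes (median -0.74) and 5 smooth muscle genes none was counted. Of 12 endothelial genes 1 was higher, Eng, at 8.46 to 16.09 against 1.82 to 6.52.
Progenitors of oligodendrocytes and ependymal cells showed again the pattern of the neutrophil list. Gpr17, a receptor of newly formed oligodendrocytes, was at 288.6 and 319.7 in the rich NI libraries and at 551.9 in HS 1 week replicate 3. It was at 61.9 in HS 2 weeks replicate 1, 24.44 in FT 1 week and 6.52 to 48.23 in the poor side. The summed level of 7 newly formed oligodendrocyte genes, which include Gpr17, did not set the same libraries apart. It was 796.6 and 835.3 in the rich NI libraries and 1238 in HS 1 week replicate 3, against 543.4 to 931.5 in the poor side. Of the 7 genes, 6 nonetheless had a side difference above 0, with a list median of 0.59. The summed level of 9 progenitor genes was 837.7, 856.9 and 661.9 in the first 3 libraries, against 219.7 to 434 in all others. The ependymal list, whose genes build motile cilia, was at 438.6, 261.6 and 274.6 in those 3, against 38.81 to 151.9 in all others. The microglia-rich side was therefore not uniform, and 3 of its 5 libraries carried these additional transcripts.

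Functional lists differed in how far they followed the side. Cell cycle genes were higher for 7 of 13, with sums of 266 to 564.3 against 197.5 to 222. Top2a, topoisomerase of dividing cells, was at 15.65 to 75.72 against 2.45 to 12.26, and Mki67 was at 12.1 to 49.45 against 2.78 to 7.27, whereas Pcna overlapped at 88.3 to 134.2 against 94.29 to 140.4. Immediate early and heat shock genes were higher for 4 of 13, and for 10 without FT 1 week. Atf3, a stress transcription factor, was highest at 409.4 in HS 1 week replicate 3 and was at 61.65 to 137.7 in the other rich libraries against 25.5 to 59.16.

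Lysosomal genes were higher for 3 of 16, Ctsc and Ctsh among them, with a median difference of 0.76. The activated phagocyte list was higher for 2 of 19, the chemokines Ccl3 and Ccl4. Ccl4 was at 295.9 to 1250 against 75.12 to 179.7. MHC class II genes, which present antigen, had sums of 784.1 to 8835 against 58.9 to 1241. Cd74, the class II invariant chain, was at 6252 in FT 1 week, 1543 in HS 2 weeks replicate 1 and 518.2 to 838.7 in the other rich libraries, but also at 785.1 in NI replicate 1. Ribosomal protein genes had a median difference of 0.45, with 73 of 77 above 0 and none counted. Nuclear genes of oxidative phosphorylation had a median of -0.21, with none counted. Lists of erythroid, Schwann cell, newly formed oligodendrocyte, cholesterol synthesis and sex-linked genes also had no member counted.

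The same direction was sought within NI, HS 1 week and HS 2 weeks, which do not depend on FT. Within all 3 groups, 637 genes (3.89%) were at least 2-fold higher in the rich libraries and 169 (1.03%) were at least 2-fold lower. Of the 666 higher genes 501 were among the 637, which is 75.2% of the former and 78.6% of the latter. Of the 125 lower genes 65 were among the 169, which is 52% and 38.5%. Csf1r differed by 3.32, 3.52 and 3.13 (log2) within NI, HS 1 week and HS 2 weeks. Dcn differed by -4.00, -4.09 and -1.72, and S100a8 by 3.71, 3.84 and -0.49. Csf1r thus differed by a like amount in each group, whereas the difference of S100a8 had the opposite sign in HS 2 weeks. The within-group values use libraries that also chose the sides.

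The groups themselves were then compared. By the moderated F test of limma across the 5 groups, 49 of 16388 genes (0.299%) differed at an adjusted p under 0.05. The 666 higher and 125 lower genes held 0 of these 49 calls, and nothing is read from this, since genes chosen to divide sides that cut across 3 groups have a large spread within groups. Over all genes 1266 had an unadjusted p under 0.05 by limma, and edgeR called 41. The sources do not tie each library to separate animals, so p-values measure the spread between these libraries, which may be technical.

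The calls lay mostly in FT 1 week, which was the highest library for 33 of the 49 and the lowest for 5. It is a single library whose spread is taken from the other groups, so a library effect and a group effect cannot be told apart there. Iigp1, an interferon-inducible GTPase, was at 575.4 in FT 1 week and 2.09 to 15.73 in the others (limma adjusted p = 0.00716). Gbp1, another such GTPase, was at 83.94 against 0.35 to 2.15 (limma adjusted p = 0.00324). C4b, a complement component, was at 27.28 to 62.55 in NI and 595.4 to 1629 in the injured libraries of both sides (limma adjusted p = 0.00324). Serpina3n, a protease inhibitor of reactive astrocytes, was at 24.4 to 126.4 in NI and 407.8 to 1938 after injury (limma adjusted p = 0.0404). These 4 genes had side differences of -1.47 to 0.18. Tpsab1, a mast cell tryptase, was at 0.06 to 0.22 in NI and 4.34 to 69.91 after injury (limma adjusted p = 0.0418), and Prg2, an eosinophil granule protein, was at 25.14 to 50.68 in NI and 0.71 to 5.63 after injury (limma adjusted p = 0.0343), also on both sides.

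The number of genes called rested on FT 1 week, without which 2 remained called under the same test. It was 9 to 12 without NI replicate 2, NI replicate 3, HS 1 week replicate 1 or any FT 2 weeks library, 26 to 28 without HS 1 week replicate 2 or either HS 2 weeks library, and 71 and 73 without NI replicate 1 and HS 1 week replicate 3. With the microglia level of each library as a covariate it was 366, which included all 49. That covariate was the mean of log2(value + 1) over the microglia list, and the sides were chosen by such transcripts. A covariate that follows the largest axis of variation takes up spread within groups, so nothing about injury is read from the rise.

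The share of variation was computed for each list as the sum of squares of log2(value + 1) between groups or between sides over the total. Of 11 degrees of freedom the groups use 4 (36.4%) and the sides 1 (9.09%), and the 2 shares overlap since the sides are unevenly spread over the groups. Over all genes 42.6% lay between groups and 40.5% between sides. The sides were chosen by microglial transcripts, so large shares between sides for microglia lists follow in part from that choice. For the microglia list the shares between groups and between sides were 21.1% and 78.1%, and for microglia transcription factors 22.9% and 82.2%. For astrocyte genes they were 28.8% and 58.4%, and for fibroblast genes 48.5% and 66%. Interferon response genes showed the opposite balance, with 83.4% between groups and 6.6% between sides. Mast cell and eosinophil genes stood at 72.7% and 14.2%. A group of 1 library has no spread within it, so its deviation counts wholly as between groups, and the interferon list was at 2699 in FT 1 week and 134.1 to 692.5 elsewhere. Without FT 1 week the shares between groups and between sides were 66.6% and 7.73% for the interferon list, 34% and 45.1% for all genes and 18.5% and 81% for the microglia list.

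**Figure D3:**
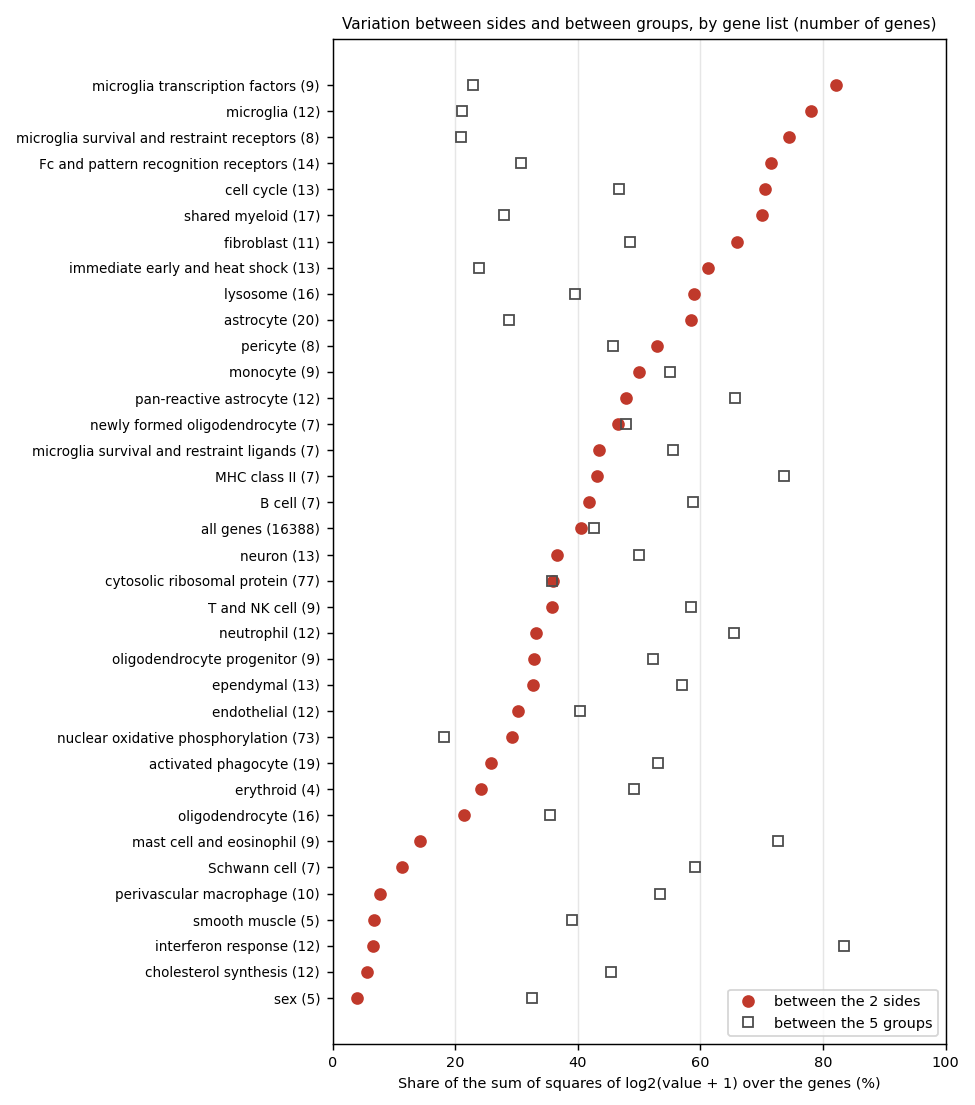
Share of the sum of squares of log2(value + 1) that lies between the 2 sides (filled circles) and between the 5 groups (open squares), in percent (x axis), for all genes and for 35 gene lists with the number of genes in parentheses (y axis). Microglia transcription factors have the largest share between sides (82.2%) and interferon response genes the largest between groups (83.4%, or 66.6% without FT 1 week). The sides were chosen by microglial transcripts, so the shares of microglia lists follow in part from that choice.

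Principal components of all genes also placed the sides apart. They were computed from the libraries that chose the sides, so this is a description and not separate evidence. The first component, with 44.16% of the variance, placed the rich libraries at 35.1 to 70.4 and the poor ones at -49.3 to -13.1, with HS 1 week replicate 1 the nearest of the poor. The second, with 20.11%, spread the rich libraries from 52.1 and 40 in NI replicates 2 and 3 to -34.7 in HS 2 weeks replicate 1 and -56.1 in FT 1 week. The poor libraries lay at -16.7 to 21.7 on it.

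**Figure D4:**
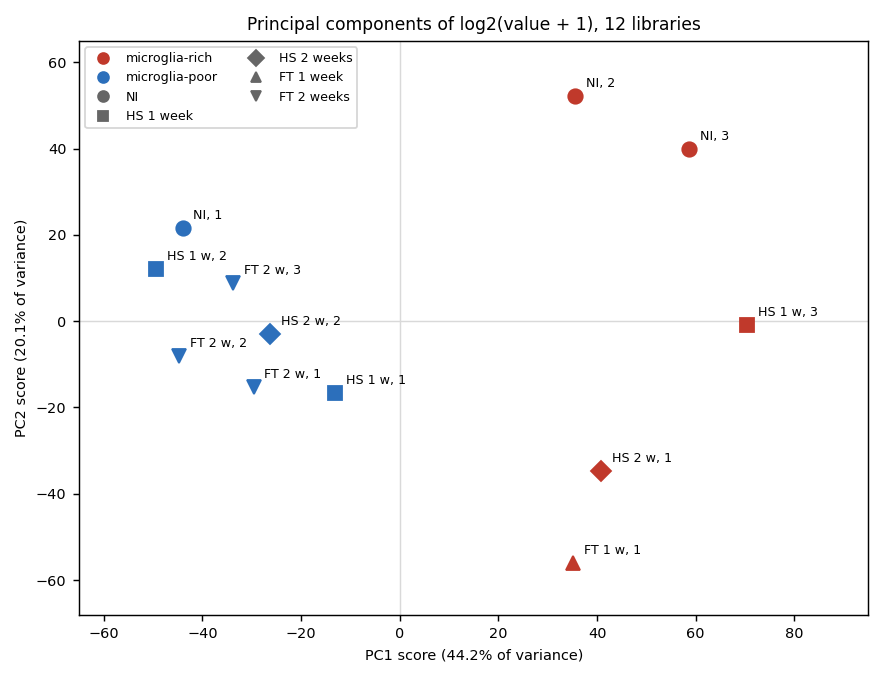
Scores of the 12 libraries on the first (x axis) and second (y axis) principal component of log2(value + 1) over all genes, with 1 point per library, colored by side and shaped by group. Rich libraries lie at 35.1 or more on the first component, and the second component runs from NI to the injured libraries among them. The sides were chosen by microglial transcripts of these same libraries.

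The rich libraries also differed from each other in the balance of microglial genes. The ratio of Tmem119 to Csf1r within a library was 0.296 and 0.304 in NI replicates 2 and 3, and 0.111, 0.113 and 0.0771 in HS 1 week replicate 3, HS 2 weeks replicate 1 and FT 1 week. The ratio of P2ry12 to Csf1r was 0.618 and 0.803 in the rich NI libraries against 0.266, 0.286 and 0.15 in the rich injured ones, and that of Selplg was 0.265 and 0.268 against 0.107, 0.104 and 0.0588. NI replicate 1, of the poor side, had 0.141 for Tmem119, 0.433 for P2ry12 and 0.124 for Selplg, so the NI libraries did not agree among themselves. Ratios are compared between libraries and not between genes, since counts depend on gene length.

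Some genes of the activated phagocyte list had higher ratios in rich injured libraries than in rich NI libraries. Spp1, osteopontin, had a ratio to Csf1r of 0.0462 and 0.0709 in the rich NI libraries, 0.307 and 0.263 in HS 1 week replicate 3 and FT 1 week, and 1.54 in HS 2 weeks replicate 1. Cst7, a cystatin induced in activated microglia, had 0.00582 and 0.0152 in the rich NI libraries and 0.0322, 0.146 and 0.166 in HS 1 week replicate 3, HS 2 weeks replicate 1 and FT 1 week. Apoe, the lipid carrier, had 1.34 and 0.641, and then 1.43, 7.05 and 4.53. NI replicate 1 had 0.227 for Spp1, 0.0368 for Cst7 and 6.11 for Apoe, within the range of the rich injured libraries for Cst7 and Apoe and above both rich NI libraries for all 3. Lpl, lipoprotein lipase, had 0.0254 and 0.0286 in the rich NI libraries and 0.0309 in FT 1 week, and Trem2 had 0.299 and 0.375 against 0.299 in HS 1 week replicate 3, so neither was set apart in every rich injured library. In the poor side the ratios of Spp1, Cst7 and Apoe reached 2.92, 0.475 and 17.4. Other cells also make Apoe and Spp1, and the astrocyte list was higher in the poor libraries than in 4 of the 5 rich ones. The part of other cells in these ratios was not tested.

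**Figure D5:**
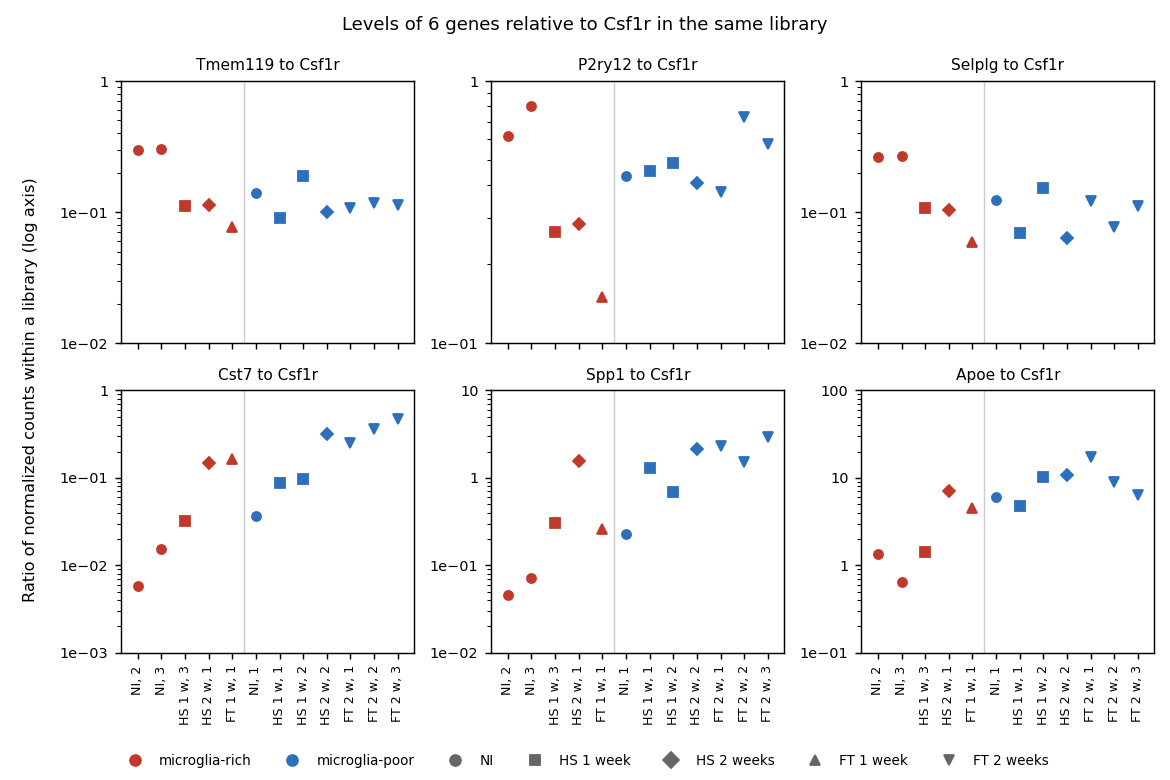
Ratio of the normalized counts of 6 genes to those of Csf1r within the same library (y axes, log scale) in the 12 libraries (x axes), with 1 point per library, colored by side and shaped by group. Tmem119, P2ry12 and Selplg have the highest ratios of the rich side in its NI libraries (0.296 and 0.304 for Tmem119), and Cst7 and Spp1 have their lowest there.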

How the data were processed

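RNA of sorted eGFP+ cells was sequenced in 12 libraries. Per the labels and methods, the authors used TopHat2 2.0.9 for alignment (mm10, GRCm38), HTSeq 0.5.4p3 for counting and edgeR 3.3.6 for normalization. The deposited signal values are counts divided by 1 factor per library, for 16389 genes. Reads were recovered from them, and 100% of values were whole within 1e-06. A read was worth 0.06117 to 0.1343 normalized counts, and this step sets the precision of low values. Here log2(value + 1) was used for 16388 genes (group mean of 0.5 or more in some group), in Python 3.11.15 and R 4.3.3. The groups were compared with limma 3.58.1 (limma-trend F test, Benjamini-Hochberg adjusted). The quasi-likelihood test of edgeR 4.0.16 on the recovered reads called 41 genes, 36 of them shared with limma, and DESeq2 1.42.0 was a further alternative. Both scripts were tested on simulated data. The sides were compared by ranges and medians with no test. The libraries of each side, the genes described and the 36 gene lists were chosen with earlier results of these data known. Some lists share members, so their counts are not independent of each other. The genes named are the 4 markers, up to 15 with the largest difference in each direction with a mean of at least 5, up to 4 members of each list with the highest mean, and up to 10 with the smallest F test p. Further list members, and those named for being counted or not, were picked with their values in view. Some genes under this rule are left out of this text. The list of mitochondrially encoded genes was not analysed here. The sequences and their starts are from RefSeq (GRCm38.p6), matched by symbol.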

Additional observations from a re-analysis of the deposited data

Results flagged for a closer look

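In 3 summed gene lists NI replicate 1 stood apart from the other 6 microglia-poor libraries by a gap that was large beside the range of the side. Its neutrophil list, at 793.6, was the highest of the poor side (gap over range 0.69). Its lysosome list, at 4438, and its pan-reactive astrocyte list, at 855.1, were the lowest (0.603 and 0.737). With 68 such checks over 34 lists, chance flags about 1 in 20, and these 3 flags are not above that rate. NI replicate 1 is the only poor library without injury, so library and injury cannot be told apart here.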

How the results depend on the processing

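The count of 666 higher genes moved past 1.5-fold only with the minimum difference of medians, to 1019 with none and 217 at 2 (log2), and leaving out each library in turn kept at least 627 of the 666. The count of 125 lower genes was 78 after rescaling to the same total or by read total, 337 with no minimum difference and 34 with a minimum of 2, and ranged from 119 to 439 with each library left out. Rescaling to the same total shifted the median of all genes to 0.07 and raised the share of higher among counted genes from 84.2% to 90.2%, and leaving out NI replicate 2 lowered it to 63%. The count of 806 genes that differed the same way within 3 groups stayed within 1.5-fold throughout. The 49 genes of the F test became 30 with a pseudocount of 0.25, 30 with a filter at 5, 26 after rescaling to the same total, 366 with the microglia covariate, 1367 with array quality weights and 522 with DESeq2, and ranged from 2 to 73 with each library left out. A fit with the replicate number as a replicate block, which leaves out FT 1 week, called 5 genes, against 2 without the block, a fit added after the values were seen. Deviations of libraries that share a number correlated at -0.478 to 0.718, so the numbers were not taken to pair them. Of the values of single genes and list medians, 607 stayed within the spread of the replicates under the alternatives, 26 moved and 0 reversed. The causes of these shifts were not tested. Counts of list members with each library left out, and shares of variation without FT 1 week, were also added after the values were seen.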
